A study of Mus musculus with 32 samples.

Results

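MicroRNAs with high, mostly recent catalogue numbers are described here, namely mmu-miR-5130, mmu-miR-1967, mmu-miR-3472, mmu-miR-5128, mmu-miR-5105 and mmu-miR-3960. They are 6 of the 1079 mouse microRNAs on the array. All were selected on their signals in these same data, for large rises between postnatal day 2.5 (P2.5) and P14.5. They were picked by name, with no stated size threshold. The P2.5 and P14.5 values below are therefore a description, with no test. The tests use P3.5 and P5.5, which the selection did not use.

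MicroRNA levels were measured in whole lungs of wild-type C57Bl/6J pups, with 1 lung RNA sample on 1 single-colour Agilent array. Pups were kept in room air (normoxia) or in raised oxygen (hyperoxia), an exposure used to model bronchopulmonary dysplasia, the arrested alveolar development that can follow preterm birth. Lungs were taken at P2.5 and P3.5, then at P5.5 and last at P14.5 in each exposure, which gives 8 groups of 4 arrays and 32 arrays in all. The labels give no other treatment. Pups were recorded as killed with pentobarbital up to P5.5 and with isoflurane at P14.5, so the recorded killing agent changed together with the last age. The study's methods, in contrast, name pentobarbital for pups of every age. Lungs were flushed with saline before freezing. Whole lung mixes many cell types, so more cells of a type and more of a microRNA per cell cannot be told apart.

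A microRNA is a short single-stranded RNA cut from a hairpin precursor. Loaded into an Argonaute protein, it pairs mainly through its seed (bases 2 to 8 from the 5′ end) with sites in messenger RNAs and lowers their stability or translation. In the lung, microRNA maturation by Dicer is needed for normal branching and epithelial growth. MicroRNAs with high catalogue numbers were mostly named from deep sequencing, and several such entries have little functional evidence. mmu-miR-3960 is an exception in the bone field, where it and its neighbour miR-2861 are known as a pair of osteoblast regulators.

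RefSeq held a mature sequence for 4 of the 6. They are shown because their seeds decide which transcripts could pair with them, and capitals mark the seed.
mmu-miR-5130: cUGGAGCGcgcgggcgaggcaggc
mmu-miR-1967: uGAGGAUCcuggggagaagaugc
mmu-miR-3472: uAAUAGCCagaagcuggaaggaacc
mmu-miR-5128: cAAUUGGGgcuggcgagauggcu
The 4 seeds differed from one another, and 0 other mature mouse entries of the RefSeq table carried any of them. For mmu-miR-5105 and mmu-miR-3960 the array probes are the sequences at hand.

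Each of the 6 was read by 2 probes with 20 spots each, and the longer probe was the shorter one plus 1 base. The longer probes are shown because they are short and, for 3 of the 6, unusually rich in G and C. Capitals mark bases that lie within a run of 9 or more shared with a probe of another microRNA.
mmu-miR-5130 probe: gcctgcctcgcc
mmu-miR-1967 probe: gcatcttctccccag
mmu-miR-3472 probe: ggttccttccagctt
mmu-miR-5128 probe: AGCCATCTCGCCagc
mmu-miR-5105 probe: ggccccccacg
mmu-miR-3960 probe: cccccgcctccg
Probe lengths ran from 10 to 15 bases, against a median of 16 over the 2754 mouse probes. GC content was 90.0% and 90.9% for the mmu-miR-5105 probes, 90.9% and 91.7% for mmu-miR-3960, and 81.8% and 83.3% for mmu-miR-5130. The median over the array was 50%, and 59 probes (2.14%) reached 80% GC. The probes of mmu-miR-1967, mmu-miR-3472 and mmu-miR-5128 lay between 53.3% and 66.7%. The reverse complement of both probes was found in the microRNA's own RefSeq hairpin for 5 of the 6 and in 0 other hairpins. RefSeq gave no entry for mmu-miR-5105. Only mmu-miR-5128 had capitals, from runs shared with probes of mmu-miR-193b-5p, mmu-miR-3473 and mmu-miR-3473b. The capitals join these runs, and each of the named probes need not share the whole marked stretch.

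The genes are dispersed. On GRCm38.p6 the Mir5130 hairpin lies at chr14:102982549-102982632 on the minus strand, within the span of Kctd12, an auxiliary subunit of GABA-B receptors. Mir1967 lies at chr8:124022641-124022722 on the plus strand, within the span of Urb2, a ribosome biogenesis factor. Mir3472 lies at chrX:145039344-145039414 on the plus strand, within the span of Rtl4, a retrotransposon-derived gene. Mir5128 lies at chr2:37688201-37688284 on the minus strand, within the span of Strbp, which encodes an RNA-binding protein. Mir3960 lies at chr2:32712900-32712972 on the minus strand, 11 bases from Mir2861 and 115 bases from Cdk9, the kinase that releases paused RNA polymerase II. The array annotation places the longer mmu-miR-5105 probe on chr5:147072599-147072608 of mm9, on the plus strand. Only gene spans were at hand, so exons, introns and untranslated regions were not assigned.

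Values are spot intensities after subtraction of a fitted background, multiplied so that every array had the same 75th percentile over the 205 probes measurable above background on every array. They are called scaled signal and have no absolute unit. Log2 values below a floor of 2.30 scaled units (1.20 on the log2 scale) were set to it. A microRNA counted as detected on an array when more than 0.5 of the spots of at least 1 of its probes were well above background.

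The tissue check used microRNAs that are known markers. mmu-miR-126-3p of endothelium, mmu-miR-200c-3p of epithelium and mmu-miR-143-3p of smooth muscle and fibroblasts were detected on 32 of 32 arrays. mmu-miR-124-3p of neurons was detected on 0 and mmu-miR-208a-3p of heart muscle on 1. mmu-miR-451, the defining microRNA of red cells, was detected on all 32 arrays, and its mean log2 signal changed by -2.71 between P2.5 and P14.5 in normoxia and by -1.75 in hyperoxia, opposite in sign to the 6 microRNAs. The same change was 0.51 and -0.88 for mmu-miR-126-3p, -0.57 and -0.23 for mmu-miR-200c-3p, and 0.02 and -0.70 for mmu-miR-143-3p, in normoxia and hyperoxia.

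Efficiency of labelling was tracked by a synthetic spike-in RNA. On 3 arrays, all at P14.5, its signal left the range that the scanner software accepts. They were normoxia replicate 28, with a log10 signal of 2.42, hyperoxia replicate 29, with 2.46, and hyperoxia replicate 31, with 2.13. The P2.5 arrays ran from 2.83 to 3.09, the P3.5 arrays from 2.80 to 2.99 and the P5.5 arrays from 2.53 to 2.82, so the labelling signal also fell between P3.5 and P5.5, the ages of the tests. The 75th percentile on these 3 arrays was 432, 301 and 198 intensity units, against 513 to 1694 up to P5.5, and scaling therefore multiplied their signals most. Local background, as an array median, was 14 to 17 up to P5.5 and 15 to 18 at P14.5, with 18 on hyperoxia replicates 29 and 31.

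**Figure D1:**
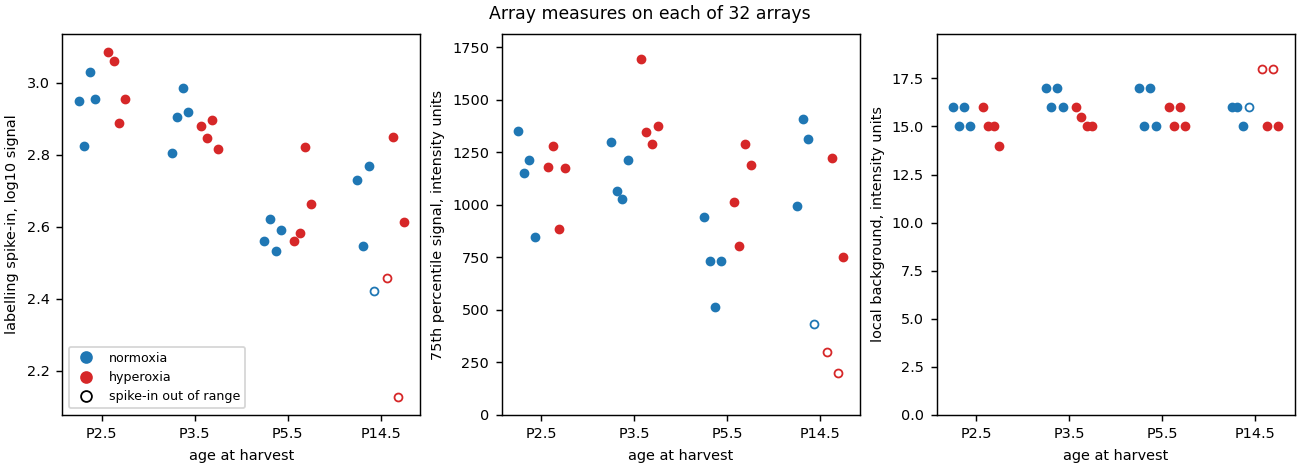
Labelling spike-in (log10 signal), 75th percentile signal and local background (both in intensity units) on each of the 32 arrays by age and exposure, with 1 point per array and open points where the spike-in was out of range. The 3 open points lie at P14.5, at 2.42, 2.46 and 2.13 in the first panel, and are the lowest 3 of the second panel.

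P2.5 and P3.5 arrays shared slides 1 and 2, and P5.5 and P14.5 arrays shared slides 3, 4 and 5, so P2.5 and P14.5 never met on a slide. Age, slide and killing agent cannot be told apart in that comparison.

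At P14.5 the 6 microRNAs stood above nearly all earlier arrays. mmu-miR-5130, mmu-miR-1967, mmu-miR-3472, mmu-miR-5128 and mmu-miR-3960 were higher on 8 of 8 P14.5 arrays than on any of the 24 earlier arrays, and mmu-miR-5105 on 7 of 8. Without scaling, the corresponding numbers were 7 for mmu-miR-5130, mmu-miR-1967 and mmu-miR-3472, 8 for mmu-miR-5128, and 6 for mmu-miR-5105 and mmu-miR-3960.

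**Figure D2:**
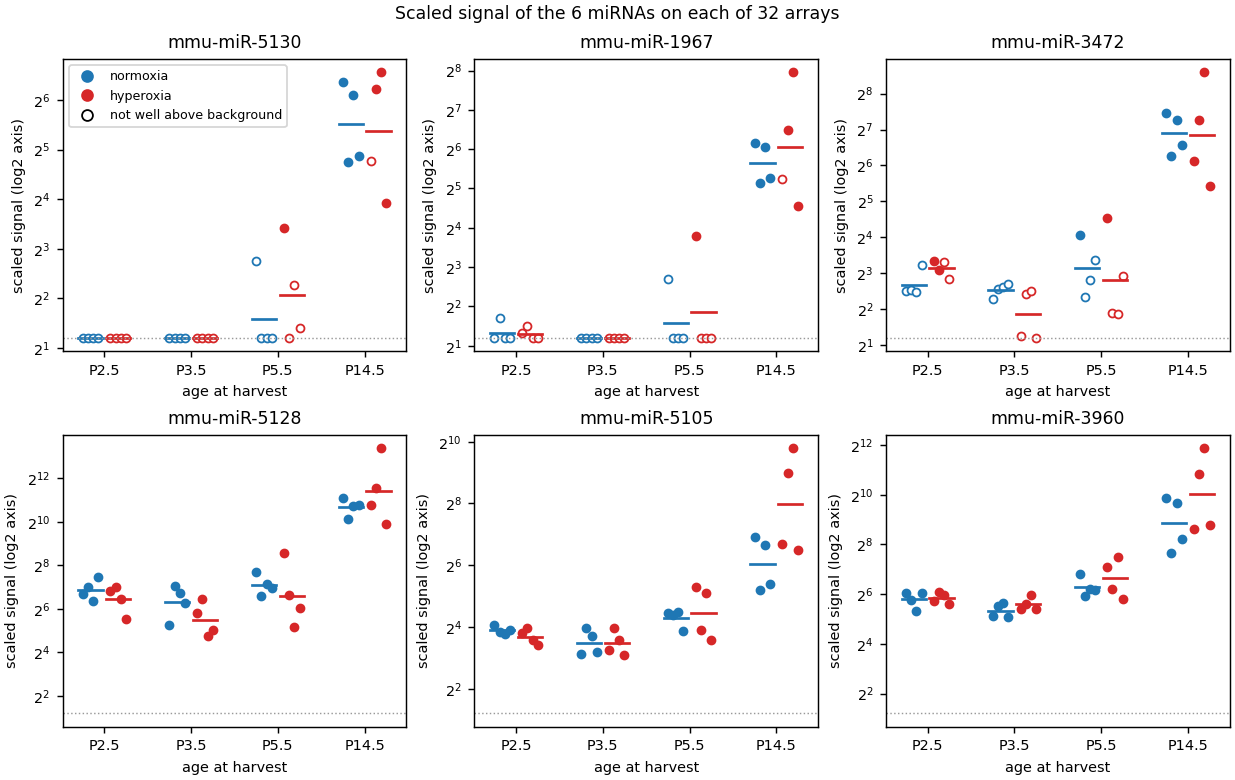
Scaled signal (log2 axis) of the 6 microRNAs on each of the 32 arrays against age, with 1 point per array, lines at the mean log2 signal of 4 arrays, open points where not well above background, and a dotted line at the floor. The upper 3 microRNAs are mostly open points up to P5.5, the lower 3 were detected on all arrays, and all 6 are highest at P14.5.

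Of the 6, 3 were hardly measurable before P14.5. mmu-miR-5130 was detected on 1 of the 24 earlier arrays, hyperoxia replicate 21 at P5.5, with an unscaled signal of 9.33 intensity units. At P14.5 its scaled signal was 82.3, 27.0, 68.6 and 29.4 on the normoxia arrays (replicates 25 to 28). On the hyperoxia arrays (replicates 29 to 32) it was 27.3, 74.6, 94.2 and 15.3, the first of these not detected. The exposures overlapped, and no P14.5 array fell within the P2.5 range of 0.257 to 2.28. Against the lowest level that could be called at P2.5, the rise was at least 3.84-fold in normoxia and at least 3.67-fold in hyperoxia. This bound sets the mean of all 4 P14.5 arrays against, on each P2.5 array, the lowest signal among probes well above background or the microRNA's own if higher. In hyperoxia it includes replicate 29, where the microRNA was not detected. It also includes replicate 31, the array with the weakest labelling, where the unscaled signal was 16.0 intensity units.

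mmu-miR-1967 behaved much like it and was also detected on 1 of 24 earlier arrays, the same hyperoxia replicate 21, with 14.0. Its P14.5 signals were 70.8, 35.2, 66.1 and 38.2 in normoxia. In hyperoxia they were 38.0, 89.4, 248 and 23.6, the first again not detected. The highest value belonged to replicate 31, the array with the weakest labelling, where the unscaled signal was 42.1 intensity units. The rise from P2.5 was at least 4.18-fold in normoxia and at least 5.93-fold in hyperoxia. Without replicate 31 the hyperoxia bound was 3.83-fold.

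mmu-miR-3472 was detected on 4 of 24 earlier arrays, on hyperoxia replicates 5 and 6 at P2.5, on normoxia replicate 17 and on hyperoxia replicate 21 at P5.5. Its signal was 176, 77.0, 155 and 95.6 on the P14.5 normoxia arrays and 70.0, 153, 386 and 43.1 on the hyperoxia arrays. All 8 were detected. The rise was at least 9.93-fold in normoxia, the highest bound of the 3 microRNAs. In hyperoxia, where 2 of the 4 P2.5 arrays measured it, the mean log2 signal was 6.85 ± 1.38 (SD, n = 4) at P14.5 and 3.14 ± 0.22 (SD, n = 4) at P2.5.

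The other three were detected on all 32 arrays. mmu-miR-5128 gave 102, 128, 82.6 and 176 on the P2.5 normoxia arrays and 112, 129, 88.8 and 46.8 on the P2.5 hyperoxia arrays. At P14.5 it gave 2158, 1114, 1707 and 1758 in normoxia and 1721, 2983, 10719 and 967 in hyperoxia. The lowest P14.5 value was above the highest value of 384 on any earlier array, also without scaling, where the limits were 445 and 334 intensity units. The log2 difference between P14.5 and P2.5 was 3.80 in normoxia and 4.94 in hyperoxia. These ranked 1 of 202 and 1 of 135 microRNAs detected on all arrays of both ages, over which the medians were -0.06 and -0.28.

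mmu-miR-5105 gave 16.8, 14.4, 13.8 and 15.1 at P2.5 in normoxia and 13.9, 15.8, 11.9 and 10.6 in hyperoxia. At P14.5 the normoxia arrays gave 122, 36.5, 101 and 42.2. The hyperoxia arrays gave 104, 512, 890 and 90.5. The log2 difference was 2.14 in normoxia, rank 11 of 202, and 4.31 in hyperoxia, rank 2 of 135. Normoxia replicate 26, at 36.5, was the P14.5 array that fell below the highest earlier value of 39.3.

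mmu-miR-3960 gave 66.1, 55.0, 39.8 and 65.4 at P2.5 in normoxia and 53.1, 68.7, 63.4 and 49.1 in hyperoxia. At P14.5 it gave 932, 201, 810 and 299 in normoxia and 394, 1834, 3777 and 437 in hyperoxia. The log2 difference was 3.06 in normoxia, rank 2 of 202, and 4.17 in hyperoxia, rank 3 of 135. Its lowest P14.5 value, 201, lay just above its highest earlier value, 182. The array of weakest labelling, hyperoxia replicate 31, was the highest for all 3, and without it the hyperoxia differences were 4.28 for mmu-miR-5128, 3.71 for mmu-miR-5105 and 3.55 for mmu-miR-3960.

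In both exposures, all 4 P14.5 arrays lay above all 4 P2.5 arrays for 6 of 6 microRNAs. Among microRNAs detected on every array of at least 1 of the 2 groups, this held for 25.9% (77 of 297) in normoxia and 13.8% (41 of 297) in hyperoxia. In hyperoxia 4 of the 6 met that detection rule, not mmu-miR-5130 and mmu-miR-1967, which were not detected on replicate 29. The selection used this contrast, so nothing is read from the share.

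Probe pairs moved in the same direction. The probes of a pair differ by 1 base, and P2.5 and P14.5 chose the microRNAs, so this agreement is no independent check. For P14.5 minus P2.5 in normoxia the shorter and longer probe of mmu-miR-5128 rose by 3.80 and 3.80 on the log2 scale, those of mmu-miR-3960 by 3.00 and 3.12, and those of mmu-miR-5105 by 2.30 and 2.03. In hyperoxia they rose by 4.97 and 4.94, by 4.13 and 4.21, and by 4.50 and 4.19. The shorter and longer probe of mmu-miR-3472, dim at P2.5, rose by 4.46 and 4.08 in normoxia and by 3.77 and 3.68 in hyperoxia. No spot of either mmu-miR-5130 probe was well above background at P2.5 and nearly none of mmu-miR-1967, so the gaps between their probes depend on the floor and are not given. The scatter between the spots of a probe at P14.5 differed between probes and arrays. The median coefficient of variation between the spots of a probe was 1.89% to 10.2% for 11 of the 12 probes and 19.4% for the shorter mmu-miR-5130 probe. Its highest value on any P14.5 array was 53.2% for that probe and 26.1% and 25.0% for the shorter and longer mmu-miR-1967 probes. For the other probes the highest value was 2.79% to 15.8%. The share of spots well above background at P14.5 was 100% on every array for both probes of mmu-miR-5128 and mmu-miR-3960, and fell to 0% on at least 1 array for the shorter mmu-miR-5130 probe. Local background at the spots of the 6 was 14 to 17.8 intensity units up to P5.5 and 15 to 18 at P14.5.

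P14.5 and P5.5 can be compared within slides 3, 4 and 5. The exposures were pooled there, since slide 3 held 2 hyperoxia arrays of P14.5 against 2 normoxia and 1 hyperoxia array of P5.5, and slide 5 held 3 P14.5 arrays against 1 of P5.5, hyperoxia replicate 23. On each of the 3 slides, every P14.5 array lay above every P5.5 array for all 6 microRNAs. For mmu-miR-5128 the log2 difference was 4.26 on slide 3, 3.72 on slide 4 and 5.96 on slide 5. For mmu-miR-3960 it was 3.55, 2.19 and 2.61. For mmu-miR-5105 it was 3.49, 1.76 and 2.44. Both P14.5 arrays of slide 3 had labelling out of range, and none of slide 5 did. No test was made because the P14.5 arrays chose the microRNAs, and the direction on these slides is a description only. Within each slide the killing agent still changed together with age.

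P14.5 arrays also differed between slides. In normoxia, mmu-miR-5130 gave 27.0 and 29.4 on slide 4 but 68.6 and 82.3 on slide 5. mmu-miR-3960 gave 201 and 299 on slide 4 but 810 and 932 on slide 5. For all 6, the 2 normoxia arrays of slide 5 were above those of slide 4, except for mmu-miR-5128, where 1707 on slide 5 lay below 1758 on slide 4. With 2 arrays a slide, the part of the slide in the spread at P14.5 was not tested.

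**Figure D3:**
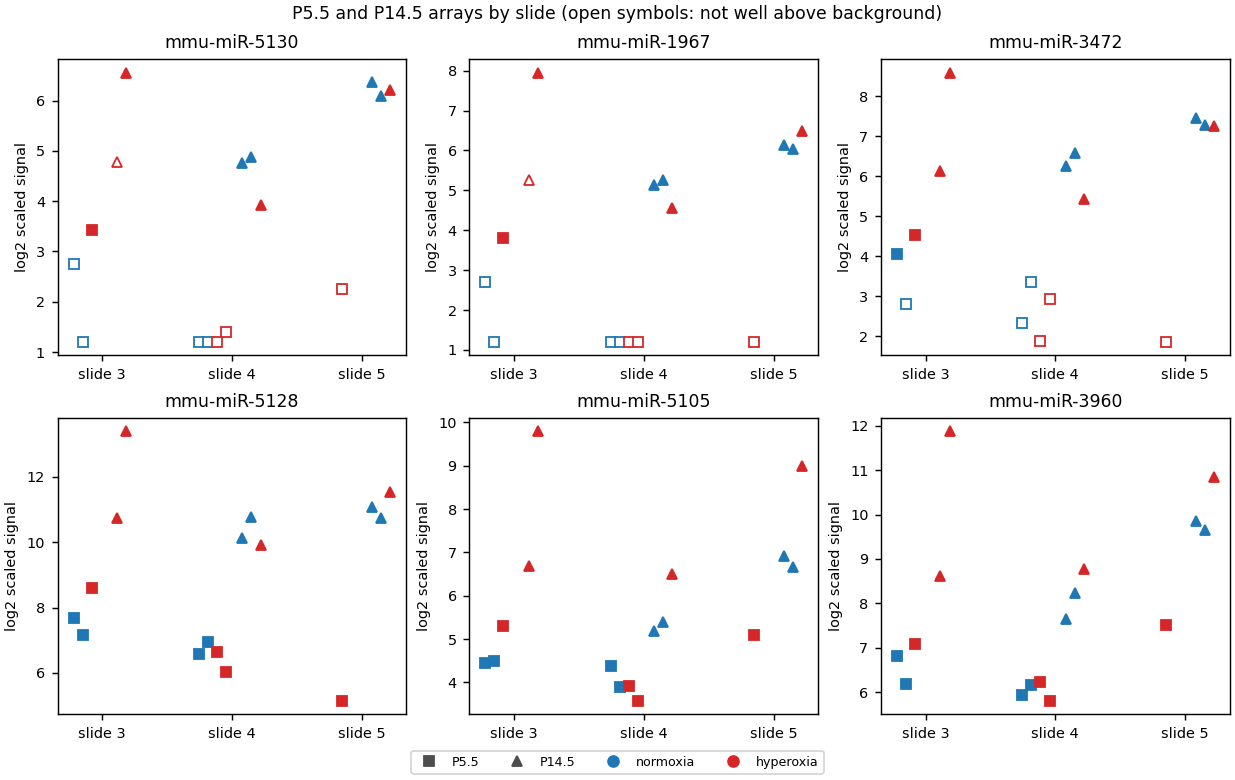
Log2 scaled signal of the 6 microRNAs on the P5.5 (squares) and P14.5 (triangles) arrays of slides 3, 4 and 5, in normoxia (blue) and hyperoxia (red), with 1 symbol per array and open symbols where not well above background. Triangles lie above squares within each slide for all 6, and the normoxia triangles of slide 5 lie mostly above those of slide 4.

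The exposures at P14.5 are again a description. Hyperoxia minus normoxia on the log2 scale was 1.95 for mmu-miR-5105, 1.18 for mmu-miR-3960, 0.72 for mmu-miR-5128 and 0.41 for mmu-miR-1967, and it was -0.15 for mmu-miR-5130 and -0.04 for mmu-miR-3472. The groups overlapped for all 6. Without scaling the differences were 0.99, 0.21, -0.24 and -0.55 for the first 4 in the same order, and -1.12 and -1.01 for the last 2, so 2 of them changed sign. Without hyperoxia replicate 31 the differences were 1.36, 0.56, 0.058 and -0.22 for the first 4 and -0.55 and -0.62 for the last 2. Without all 3 arrays of low labelling they were 1.49, 0.75, 0.085 and -0.26, and -0.66 and -0.66. Within slides, the single hyperoxia array of slide 4 and that of slide 5 were above both normoxia arrays of their slide for mmu-miR-5105 and for mmu-miR-3960. The differences from the mean of the 2 normoxia arrays were 1.20 and 2.21 for mmu-miR-5105 and 0.83 and 1.08 for mmu-miR-3960. None of the 3 arrays of slide 5 had labelling out of range, while normoxia replicate 28 of slide 4 did. For mmu-miR-5128 and mmu-miR-1967 the sign differed between the slides. At P2.5 the 6 differences ran from -0.41 to 0.45, and the groups overlapped for all 6.

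P3.5 and P5.5, with arrays that the selection did not use, were compared with limma over all microRNAs that passed a detection filter, and p-values were adjusted by Benjamini and Hochberg over all of them. Only mmu-miR-5128, mmu-miR-5105 and mmu-miR-3960 passed this filter, 3 of the 6. mmu-miR-5130 and mmu-miR-1967 were each detected on 1 of these 16 arrays and mmu-miR-3472 on 2, and they were not tested. With 4 arrays against 4, an exact two-sided permutation p cannot go below 0.0286. These p-values rest on the spread between the arrays of a group, which mixes differences between single pups with those of slide and labelling. A difference between the slides of P3.5 and those of P5.5 is not part of that spread.

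mmu-miR-3960 was higher at P5.5 than at P3.5 in both exposures. In normoxia its scaled signal was 34.6, 45.7, 50 and 34.1 at P3.5 and 113, 61.0, 73.0 and 70.9 at P5.5, with no overlap. The log2 difference was 0.93 (SE 0.31, 95% interval 0.26 to 1.60, limma adjusted p = 0.0271, exact permutation p = 0.0286). In hyperoxia it was 42.7, 48.1, 63.0 and 42.3 at P3.5 and 136, 74.5, 182 and 56.0 at P5.5, where 1 P5.5 array fell within the P3.5 range. The log2 difference was 1.06 (SE 0.31, 95% interval 0.39 to 1.73, limma adjusted p = 0.0113, exact permutation p = 0.0571).

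mmu-miR-5105 rose between these ages in hyperoxia. It gave 9.56, 15.6, 12.0 and 8.49 at P3.5 and 39.3, 15.0, 34.1 and 12.0 at P5.5, so that the higher age had 2 arrays inside the range of the lower. The log2 difference was 1.00 (SE 0.35, 95% interval 0.25 to 1.74, limma adjusted p = 0.0267, exact permutation p = 0.114). In normoxia it gave 8.76, 15.7, 13.0 and 9.13 at P3.5 and 22.0, 20.9, 22.6 and 14.8 at P5.5, a log2 difference of 0.81 that did not pass (limma adjusted p = 0.0770, exact permutation p = 0.0571). It passed with the percentile over all probes (0.91, limma adjusted p = 0.0236), quantile normalization (0.96, 0.0265), normexp background (0.62, 0.00677) and the deposited series values (1.78, 0.0148).

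mmu-miR-5128 did not pass in either exposure. In normoxia it gave 38.5, 132, 108 and 78.3 at P3.5 and 206, 96.6, 143 and 124 at P5.5, a log2 difference of 0.76 with a 95% interval of -0.55 to 2.07 (limma adjusted p = 0.335). In hyperoxia it gave 55.5, 87.0, 26.8 and 32.3 at P3.5 and 384, 99.1, 35.7 and 66.0 at P5.5, a log2 difference of 1.11 with a 95% interval of -0.21 to 2.42 (limma adjusted p = 0.135). Hyperoxia replicate 21 on slide 3 was the high array, and the hyperoxia difference was 0.45 without it. Without the low hyperoxia replicate 23 it was 1.59 and passed (limma adjusted p = 0.0366).

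Thus 1 of 3 tested microRNAs passed in normoxia, where 42.4% of all tested microRNAs passed (123 of 290, 26 higher and 97 lower at P5.5). In hyperoxia 2 of 3 passed, where 53.7% of all passed (161 of 300, 26 higher and 135 lower). These splits moved with the scaling. In normoxia they were 25 higher and 49 lower with the percentile over all probes, 53 and 62 with quantile normalization, 1 and 238 without scaling, 146 and 17 with normexp and 49 and 52 in the series values. In hyperoxia they were 33 and 84, 51 and 75, 3 and 193, 23 and 29, and 47 and 65 in the same order. With 3 microRNAs against such shares, the counts by themselves set the 3 apart from nothing. The median log2 difference over all microRNAs tested was -0.13 in normoxia and -0.21 in hyperoxia. P3.5 and P5.5 lay on different slides, and the labelling signal was lower at P5.5 on all arrays but hyperoxia replicate 23, so age, slide and labelling cannot be told apart. With slide as a random block the 3 calls held, with limma adjusted p = 0.0261 and 0.0103 for mmu-miR-3960 and 0.0259 for mmu-miR-5105. No slide held arrays of both ages, so that fit cannot separate slide from age, and nothing is read from it.

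The calls depended on scaling and on single arrays. Without scaling, the median of all microRNAs shifted by -0.68 in normoxia and by -0.42 in hyperoxia, and 0 of the 3 calls held. Relative to the median of all, the mmu-miR-3960 difference was 1.06 in normoxia and 1.27 in hyperoxia with scaling and 1.05 and 1.27 without. Scaling multiplies all signals of an array by the same factor, so these relative values could hardly differ and are no check of the calls. The mmu-miR-3960 call in normoxia was lost without normoxia replicate 9 (limma adjusted p = 0.0634), 12 (0.0704) or 17 (0.0877). The mmu-miR-5105 call in hyperoxia was lost without hyperoxia replicate 13 (0.0628), 16 (0.0765), 21 (0.0888) or 23 (0.0770), and with total gene signal (0.97 on the log2 scale, limma adjusted p = 0.0683). With the unequal-variance test named in the study's methods and the same adjustment, the mmu-miR-3960 call in normoxia held, and both hyperoxia calls were lost.

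**Figure D4:**
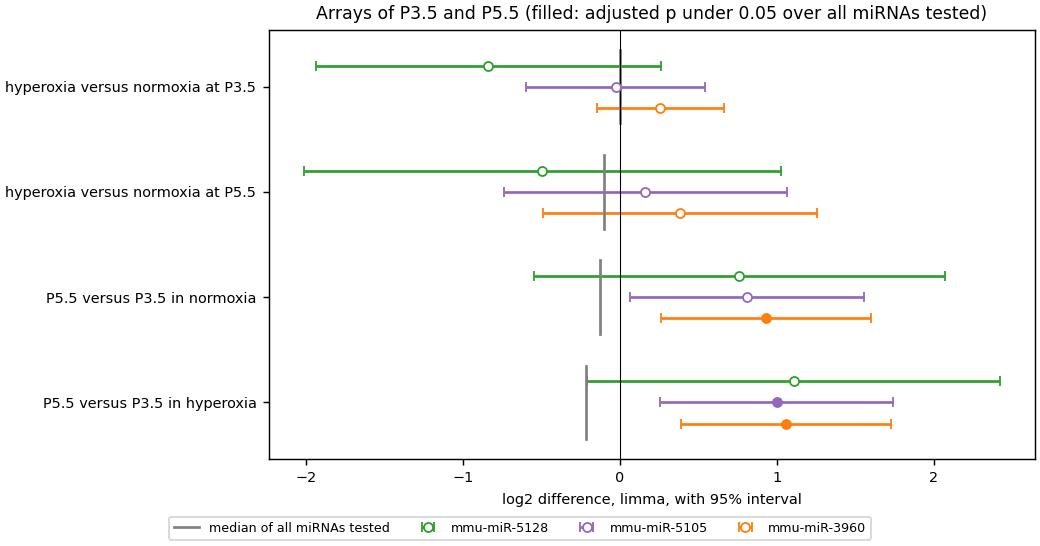
Log2 differences with 95% intervals (limma) of mmu-miR-5128, mmu-miR-5105 and mmu-miR-3960 in 4 comparisons of 4 against 4 arrays, filled where the adjusted p was under 0.05, with a grey bar at the median of all microRNAs tested. All 6 age differences lie to the right of the grey bar and 3 are filled, while the 6 exposure differences lie on either side of 0 and are open.

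No effect of hyperoxia on the 3 microRNAs passed at either age. At P3.5 the log2 difference between hyperoxia and normoxia was -0.84 for mmu-miR-5128 (95% interval -1.94 to 0.26, limma adjusted p = 0.437), -0.03 for mmu-miR-5105 (-0.60 to 0.54) and 0.26 for mmu-miR-3960 (-0.15 to 0.66). Of all microRNAs tested, 2.64% passed at this age (8 of 303). At P5.5 the differences were -0.49 (-2.02 to 1.03), 0.16 (-0.74 to 1.06) and 0.38 (-0.49 to 1.25) in the same order, with adjusted p from 0.531 to 0.821, where 25.2% of all passed (64 of 254). The intervals reach past a doubling in at least 1 direction for mmu-miR-5128 at both ages, and for mmu-miR-5105 and mmu-miR-3960 at P5.5. Values within slides at P5.5 differed in sign. On slide 3 the hyperoxia array was above both normoxia arrays for all 6 microRNAs. Its difference from the mean of these 2 arrays ran from 0.58 for mmu-miR-3960 to 1.85 for mmu-miR-1967. On slide 4 the differences between the means of mmu-miR-5128, mmu-miR-5105 and mmu-miR-3960 were -0.44, -0.39 and -0.03. The difference of the hyperoxia effect between the 2 ages was also tested, and 0 of 3 passed, against 3.63% of all (11 of 303). Its adjusted p ran from 0.902 to 0.937.

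The unscaled comparison gave other calls for mmu-miR-3960. Without scaling its hyperoxia difference was 0.57 at P3.5 (limma adjusted p = 0.0423) and 0.95 at P5.5 (0.0113). The median of all microRNAs shifted by 0.31 and 0.57 under that setting, and relative to the median the difference was 0.26 at P3.5 and 0.48 at P5.5 with or without scaling. Because scaling multiplies a whole array by 1 factor, this relative value could hardly change, and nothing is read from its constancy.

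Across the 8 group means the 6 microRNAs resembled each other. Pearson's r between pairs ran from 0.922 to 0.995 over 15 pairs, which share the arrays, their scaling and the P14.5 rise for which all were selected. The most alike other microRNAs among 318 candidates were mmu-miR-3072-5p (r = 0.997) and mmu-miR-1967 (0.995) for mmu-miR-5130, and mmu-miR-483-5p (0.998) and mmu-miR-1894-3p (0.997) for mmu-miR-1967. For mmu-miR-3472 and mmu-miR-5128 the first was mmu-miR-125a-3p (0.991 and 0.991), followed by mmu-miR-5112 (0.991) and mmu-miR-671-5p (0.990). For mmu-miR-5105 they were mmu-miR-1196-5p (0.995) and mmu-miR-211-3p (0.991), and for mmu-miR-3960 they were mmu-miR-5126 (nearly 1) and mmu-miR-3102-5p (0.996). Of these, mmu-miR-125a-3p, mmu-miR-1196-5p and mmu-miR-5126 were detected on all 24 earlier arrays, and their P14.5 minus P2.5 log2 differences were 2.95, 1.69 and 2.68 in normoxia and 3.15, 2.96 and 3.62 in hyperoxia. mmu-miR-483-5p was detected on 1 and mmu-miR-1894-3p on 2 of the 24. Several of them, such as mmu-miR-125a-3p, miR-483-5p from the Igf2 gene and mmu-miR-671-5p, have low or middle catalogue numbers.

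A list of the 253 mouse microRNAs numbered 1900 or higher was also described. Without the 6, all 4 P14.5 normoxia arrays were above all 4 P2.5 arrays for 18 of 31 listed microRNAs, against 25.9% of all. The median log2 difference was 1.47 against -0.20 over all 297. In hyperoxia it was 16 of 30 against 13.8% of all, with a median of 1.46 against -0.63. These microRNAs were detected on every array of the P2.5 or of the P14.5 group, so those dim at P2.5 entered only through P14.5. The selection used the same arrays, so nothing is read from these shares and medians. Between P3.5 and P5.5, away from the ages of the selection, 6 of 24 passed in normoxia (3 higher and 3 lower, median 0.23), where 42.4% of all did. In hyperoxia 11 of 23 passed (7 higher and 4 lower, median 0.32), where 53.7% of all did. For hyperoxia against normoxia, 2 of 25 passed at P3.5, where 2.64% of all did, and 2 of 18 at P5.5, where 25.2% of all did, all 4 of them lower.

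The change between ages also went with the base composition of the probes. Over microRNAs detected on all arrays of both ages, Pearson's r between the log2 change from P3.5 to P5.5 and the mean GC content of the probes was 0.50 in normoxia (n = 233) and 0.45 in hyperoxia (n = 248), and with probe length it was -0.42 and -0.41. For P2.5 to P14.5 the values were 0.36 (n = 202) and 0.58 (n = 135) with GC content, and -0.33 and -0.56 with length. These are descriptions across microRNAs that share arrays, labelling and scaling. The 2 other microRNAs with probes of at least 80% GC that were measured at P2.5 and P14.5 in normoxia rose by 2.34 and 2.68, and the 3 in hyperoxia by 2.28 to 3.62. From P3.5 to P5.5, 2 such other microRNAs rose by 0.57 and 0.81 in normoxia, and 2 by 0.86 and 0.91 in hyperoxia. Over these ages mmu-miR-3960 rose by 0.93 in normoxia and 1.06 in hyperoxia, and mmu-miR-5105 by 0.81 and 1.00. The part of base composition, labelling and scaling in the rise of the 6, or in the calls between P3.5 and P5.5, was not tested.

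Neighbours by position or sequence were looked up after the values were seen. mmu-miR-2861, encoded 11 bases from mmu-miR-3960, had a P14.5 minus P2.5 log2 difference of 2.07 in normoxia and 2.88 in hyperoxia. mmu-miR-3473 and mmu-miR-3473b, which share a probe stretch with mmu-miR-5128, changed by 0.69 and 0.77 in normoxia and by 0.78 and 1.06 in hyperoxia, less than the 3.80 and 4.94 of mmu-miR-5128. mmu-miR-193b-5p, the remaining one, was detected on 0 arrays.

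The direction from P2.5 to P14.5 was the same under each setting tried, but the size was not. Without the 3 P14.5 arrays of low labelling, the differences were 2.35 for mmu-miR-5105 to 4.54 for mmu-miR-5130 in normoxia and 3.20 for mmu-miR-3472 to 4.27 for mmu-miR-5128 in hyperoxia. With normexp background correction, which adds an offset of 50, the differences fell to 0.94 and 0.96 for mmu-miR-5130 and mmu-miR-1967 and to 0.90 for mmu-miR-5105 in normoxia, while mmu-miR-5128 kept 3.21 and mmu-miR-3960 2.19. In the deposited series values mmu-miR-5130 and mmu-miR-1967 differed by 7.91 and 8.15, against 4.32 and 4.32 with the floor used here. For these 2 microRNAs every such difference depends on how signals near background are set, and the bounds given above are the quantity to read. Those bounds include the P14.5 arrays of low labelling.

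**Figure D5:**
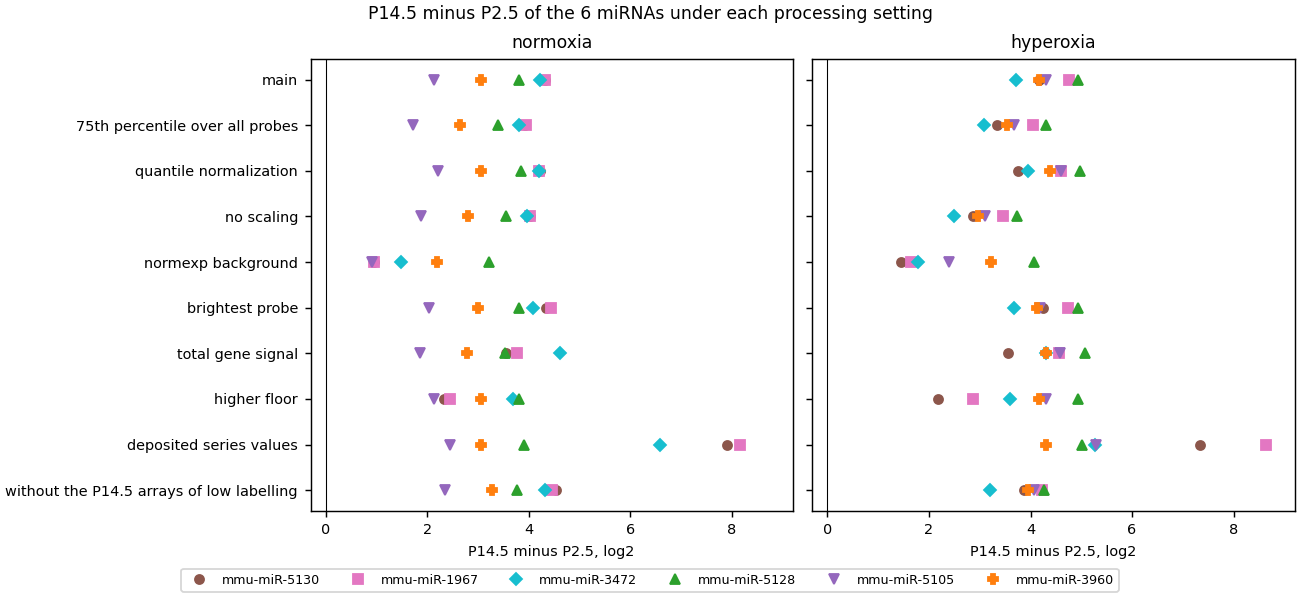
P14.5 minus P2.5 (log2) of the 6 microRNAs in normoxia and hyperoxia under the main processing and each alternative except leaving out single arrays, with 1 symbol per microRNA and a line at 0. All symbols lie to the right of 0, mmu-miR-5128 lies between 3.21 and 5.07 in the settings drawn, and mmu-miR-5130 and mmu-miR-1967 range from 0.94 to 8.63.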

How the data were processed

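Total RNA of whole mouse lungs was hybridised to 32 single-colour Agilent microRNA arrays, 4 in each of 8 groups of age and exposure, and groups were taken from the sample labels. The deposited scanner files hold spot intensity values that, per the file headers, were extracted with Agilent Feature Extraction 10.7.3.1, which had already subtracted a fitted spatial background, together with deposited flags for spots above background and outliers. The deposited series table holds log2 values, and how the authors scaled it is not given in the sources used here, so it served only as an alternative. Its column medians equal the column minimum, and its order of microRNAs is that of the scanner software's total gene signal. 0 columns of per-sample values were left unmatched.

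Non-outlier spots were averaged for each probe, arrays were brought to a common 75th percentile over 205 probes (1166 intensity units), probes of a microRNA were averaged, and values below 2.30 were set to it before log2. Comparisons at P3.5 and P5.5 used limma 3.58.1 in R 4.3.3 (lmFit and eBayes, Benjamini-Hochberg adjusted p under 0.05) on microRNAs that every array of 1 or more of the compared groups detected, leaving out microRNAs at 1 constant value. The scripts were tested on simulated data. Descriptions and figures were made with pandas 2.3.3, numpy 2.4.6 and matplotlib 3.10.9 under Python 3.11.15. Named microRNAs were the 6, and for each the 2 others with the highest Pearson correlation over 8 group means. Tissue markers and neighbours were added after their values were known. The members and lists were chosen with earlier results of these data known. Alternatives covered scaling, background correction, floor, probe summary, detection filter, slide, test and leaving out arrays. The number of arrays limits the precision.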

Additional observations from a re-analysis of the deposited data

Results flagged for a closer look

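In a group of 4, an array was singled out when its gap to the nearest other array was, as a share of the group's range, above Dixon's 95% critical value. This happens in about 1 of 20 groups by chance, and 5 of the 48 combinations of microRNA and group met it. All concern the 3 dim microRNAs before P14.5. In 4 of the 5, of mmu-miR-5130 and mmu-miR-1967, the other 3 arrays were at the floor of 1.20 on the log2 scale, so that any array above the floor was singled out and the rate by chance does not apply. mmu-miR-5130 stood out at P5.5 on normoxia replicate 17, with a log2 signal of 2.76, where it was not detected. mmu-miR-1967 stood out on normoxia replicate 2 at P2.5, with 1.70, and on normoxia replicate 17 at P5.5, with 2.70, and was detected on neither. It also stood out at P5.5 on hyperoxia replicate 21, with 3.80, where it was detected. mmu-miR-3472 stood out on normoxia replicate 4 at P2.5, with 3.22, and was not detected there. No array of that group was at the floor.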

How the results depend on the processing

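No paired analysis was possible because every replicate number from 1 to 32 occurs once. The rise from P2.5 to P14.5 stayed above 0 under every alternative for all 6 microRNAs, which were selected for this rise on the same arrays, so nothing is read from its sign. Counts of all microRNAs called depended on the processing, and the cause was not tested. For hyperoxia against normoxia at P3.5 the 8 calls became 5 with quantile normalization, 37 without scaling (36 higher), 1 with total gene signal, 4 with slide as a fixed block, 3 with the methods' test and 2 to 8 on leaving out 1 array. At P5.5 the 64 calls (16 higher) became 10 with the percentile over all probes, 37 with quantile normalization (18 higher), 29 without scaling (28 higher), 30 with normexp, 37 in the deposited series values (19 higher) and 39 to 58 on leaving out 1 array. For P5.5 against P3.5 in normoxia the 123 calls (26 higher) became 74 with the percentile over all probes, 239 without scaling (1 higher), 163 with normexp (146 higher) and 64 with the methods' test. In hyperoxia the 161 became 52 with normexp. For the difference of the hyperoxia effect the 11 became 1 with the percentile over all probes, quantile normalization, no scaling or normexp, 4 with total gene signal, 6 in the series values and 3 to 22 on leaving out 1 array, the highest without hyperoxia replicate 15 at P3.5.

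Small exposure differences, none past the threshold in the main processing, changed sign under some settings. Those of mmu-miR-3960 passed without scaling, as given above. At P3.5 mmu-miR-5105 (-0.03) gave 0.10 with the percentile over all probes, 0.063 with quantile normalization, 0.28 without scaling, 0.24 with total gene signal, 0.51 in the series values and -0.19 to 0.13 on leaving out 1 array, and mmu-miR-3960 gave -0.046 with normexp. At P5.5 mmu-miR-5128 gave 0.072 without scaling and 0.20 with slide as a fixed block. There mmu-miR-5105 gave -0.32 with normexp and -0.12 to 0.46 on leaving out 1 array, and mmu-miR-3960 gave -0.0052 with normexp. The difference between the ages for mmu-miR-5105 was -0.078 with normexp, -0.11 with total gene signal, -0.27 in the series values and -0.088 to 0.48 on leaving out 1 array. On leaving out 1 array it was -0.32 to 0.83 for mmu-miR-5128 and -0.16 to 0.41 for mmu-miR-3960. The lowest signal of any single probe well above background was 105 scaled units on hyperoxia replicate 31 at P14.5, against 7.10 to 22.9 on the arrays up to P5.5. Leaving out P14.5 arrays for the exposure differences at P14.5 and for the bounds was added after seeing the data.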
